A study of Homo sapiens with 12 samples.

Results

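The 10 genes described here make or regulate the enzymes that build fatty acids and place double bonds in them: SREBF1, ACLY, ACSS2, ACACA, FASN, ELOVL5, ELOVL6, SCD, FADS1 and FADS2. They were taken by symbol from a table of 11178 genes, and all 10 were listed. All 10 were also among the 11128 genes tested, those that reached a linear value of 10 in 4 or more of the 12 libraries. Expression was measured by RNA sequencing in U251-APP cells, a glioblastoma-derived human line related to astrocytes, into which APP with the changes K670N and M671L was stably introduced, grown with 10% serum. CTCF-A KO cells (4 libraries) lack a binding site of the chromatin protein CTCF that the labels call CTCF-A. CTCF-B KO cells (4 libraries) lack another such site, CTCF-B, and the wild-type control cells (WT, 4 libraries) are labelled as having neither deletion, though their label, too, names CRISPR/Cas9 editing as the treatment. For each deletion a pair of guide RNAs and Cas9 cut on both sides of the site, and knockout cells were grown from single cells for 3 to 4 weeks and checked by sequencing the target region. Neither site has coordinates in the labels, and within each knockout the sample titles share a code whose meaning is not stated. It is not stated either whether the 4 libraries of a group came from different clones or cultures, so each p-value measures the spread between these libraries, and that spread may be technical.

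As background, SREBF1 encodes SREBP-1, a membrane-bound transcription factor that, once cut free in the Golgi, enters the nucleus and turns on lipid genes. ACLY makes acetyl-CoA from citrate and ACSS2 makes it from acetate. ACACA turns acetyl-CoA into malonyl-CoA, and FASN joins the units into palmitate. ELOVL6 lengthens saturated and monounsaturated chains, ELOVL5 lengthens polyunsaturated ones, SCD places the first double bond in saturated chains, and FADS2 and FADS1 add double bonds to polyunsaturated ones. In the brain these steps feed membrane and myelin lipids, and astrocytes pass lipids to neurons.

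Both knockouts had lower expression of most of these genes than WT, with SCD and FADS2 among the deepest falls. FADS2 fell to 0.234 of WT in CTCF-A KO cells and to 0.308 in CTCF-B KO cells, and SCD fell to 0.347 of WT in CTCF-A KO cells and to 0.159 in CTCF-B KO cells. In CTCF-A KO cells 8 of the 10 genes fell and 2 rose, at an adjusted p under 0.05 over all genes tested; among all genes 31.1% fell and 31.8% rose. Of all genes called in CTCF-A KO cells 50.6% were higher, against 61.7% with median centring of the libraries and 60.6% with a trend on GC content and length removed. The median difference from WT was -0.46 on the log2 scale over the 10 genes and 0.0049 over all genes. In CTCF-B KO cells 7 fell, none rose and 3 did not pass the test, against 20.6% lower and 18.9% higher among all genes; the median difference was -0.71 over the 10 genes and 0.0016 over all genes. Among all genes 62.9% changed in CTCF-A KO cells and 39.4% in CTCF-B KO cells, so a call by itself is common here. These shares come from a single fit of all 12 libraries, and their order depended on it. Fits of only the 8 libraries compared called 6144 of the 11128 genes in CTCF-A KO cells and 6601 in CTCF-B KO cells. The 2 comparisons share the 4 WT libraries.

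Falls of at least 2-fold were seen for ELOVL6, SCD and FADS2 in CTCF-A KO cells, where 1.29% of all genes fell that far. With the trend on GC content and length removed, ELOVL6 fell by less than 2-fold there (log2 -0.67). SCD (-1.37) and FADS2 (-2.21) stayed past 2-fold. SREBF1, FASN, SCD and FADS2 fell at least 2-fold in CTCF-B KO cells, where 1.04% of all genes did. Of the 11128 genes tested, SCD had the 20th lowest difference from WT in CTCF-A KO cells and the 5th lowest in CTCF-B KO cells. FADS2 ranked 7th lowest in CTCF-A KO cells and 23rd lowest in CTCF-B KO cells. SREBF1 ranked 20th lowest in CTCF-B KO cells. In CTCF-A KO cells all 4 libraries lay below all 4 WT libraries for 8 of the 10 genes and above them for 1, against 22.1% below and 25.7% above among all genes. The CTCF-B KO libraries lay below for 9 genes and above for 0, against 27.3% and 26.2% of all genes.

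**Figure D1:**
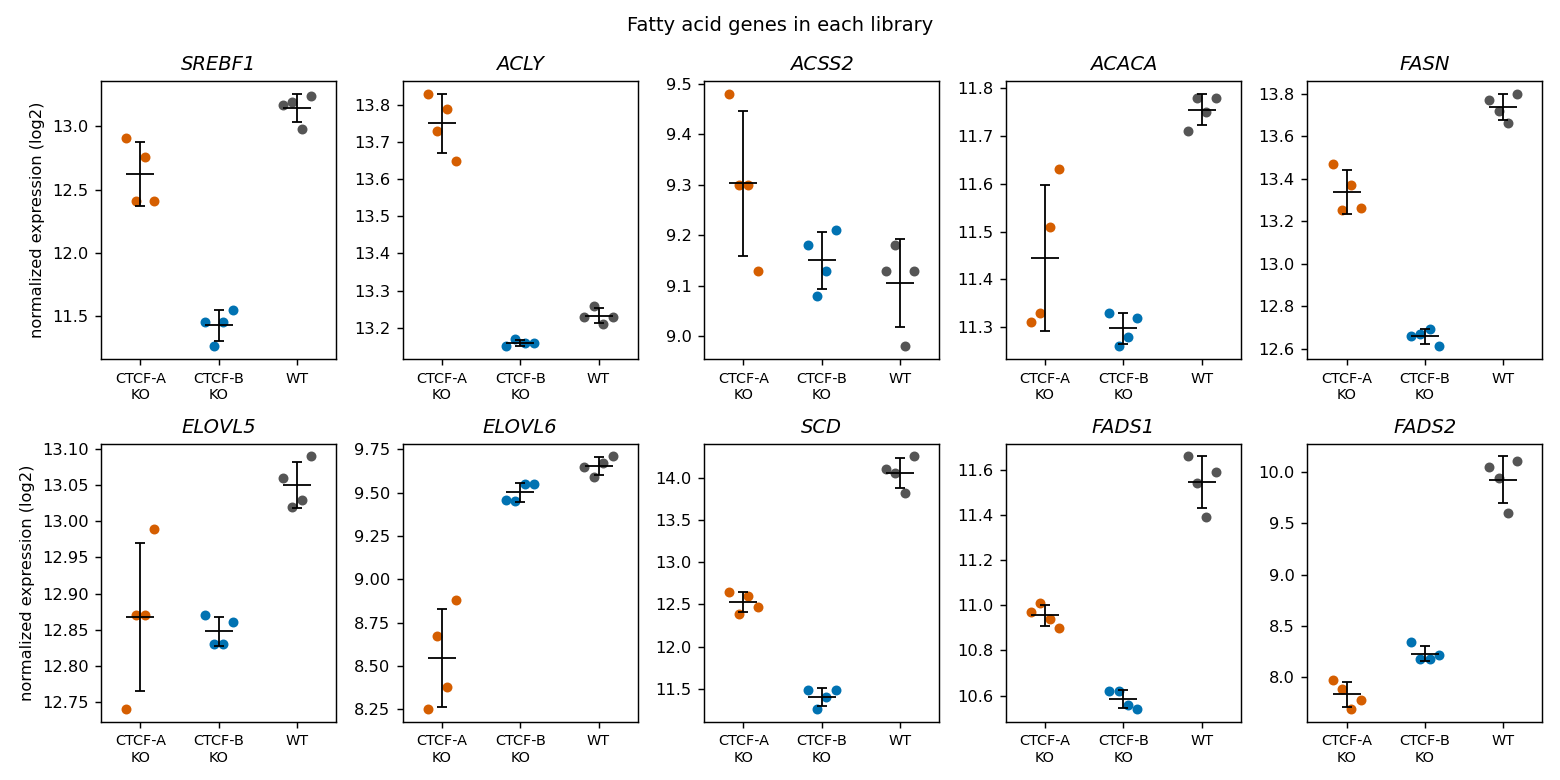
Normalized expression (log2, vertical axis, a different scale in each panel) of the 10 genes in the 4 CTCF-A KO, 4 CTCF-B KO and 4 WT libraries, each dot a library, with the mean and SD as a line and bars. SCD and FADS2 lie far below WT in both knockouts, ACLY is high in CTCF-A KO libraries alone, and ACSS2 overlaps WT in both.

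Depth is unknown, because the deposited values are normalized and on a log2 scale. Replicate libraries differed by a median of 0.08 to 0.29 in CTCF-A KO cells, 0.06 to 0.08 in CTCF-B KO cells and 0.05 to 0.08 in WT cells, and no libraries were identical. Relative to WT, the tenth of genes with the highest GC content lay above the tenth with the lowest by 0.96, 0.45 and 0.66 in CTCF-A KO replicates 1, 2 and 3 and by 0.06 in replicate 4. The range was -0.10 to 0.03 in CTCF-B KO libraries and -0.15 to 0.09 in WT libraries. The 10 genes were also read with this trend removed and with CTCF-A KO replicate 4 alone. Those of their values that moved by over 1.5 times, or lost the call, are given beside the values below. Values of other single genes and of the 1 Mb windows were not read in these settings. With the trend removed 7 of the 10 genes fell and 1 rose in CTCF-A KO cells. With replicate 4 alone the spread is estimated from the CTCF-B KO and WT libraries. Calls for CTCF-A KO cells in that setting therefore hold no spread between CTCF-A KO libraries. Of the 11 astrocyte and glioma markers 8 were listed, and S100B, AQP4 and ALDH1L1 were not. Their summed linear level was 115501 to 130222 in CTCF-A KO libraries, 105333 to 109211 in CTCF-B KO libraries and 165141 to 187914 in WT libraries, with 5 of the 8 lower and 0 higher in CTCF-A KO cells and all 8 lower in CTCF-B KO cells. GFAP averaged 12.57 in CTCF-A KO, 12.83 in CTCF-B KO and 15.68 in WT libraries (log2), while VIM (0.02), SOX9 (0.06) and NES (-0.12) did not pass in CTCF-A KO cells. None of the 6 adipocyte, 6 hepatocyte, 6 oligodendrocyte and 6 microglia markers was listed. Of 6 neuron markers SYT1 and SNAP25 were listed and rose in CTCF-B KO cells (0.71 and 0.43), with CTCF-A KO differences of 0.01 and -0.18 that did not pass. Of 6 fibroblast markers COL1A1 fell in CTCF-A KO cells (-1.03) and in CTCF-B KO cells (-0.41), and COL1A2 fell in CTCF-B KO cells (-0.19) with a CTCF-A KO difference of 0.11 that did not pass. The part of the GC trend and of the marker levels in the results was not tested, and fewer cells of a type cannot be told apart from less RNA per cell in bulk libraries.

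The promoter sequences of the desaturases and of ACLY, the gene that rose most in CTCF-A KO cells, are shown because the desaturases fell in both knockouts and ACLY moved the other way in CTCF-A KO cells. Each is the 250 bases before a RefSeq transcription start, written in the direction of the gene (RefSeq, GRCh38.p14). Where a gene had several starts, the one found in the most GENCODE 29 transcripts was used. Capitals mark the letters CCAAT or their complement ATTGG, a box bound by the factor NF-Y that often lies near SREBP sites. The SCD window is chr10:100346983-100347232, plus strand, the FADS2 window is chr11:61816154-61816403, plus strand, the FADS1 window is chr11:61817004-61817253, minus strand, and the ACLY window is chr17:41918952-41919201, minus strand.
SCD: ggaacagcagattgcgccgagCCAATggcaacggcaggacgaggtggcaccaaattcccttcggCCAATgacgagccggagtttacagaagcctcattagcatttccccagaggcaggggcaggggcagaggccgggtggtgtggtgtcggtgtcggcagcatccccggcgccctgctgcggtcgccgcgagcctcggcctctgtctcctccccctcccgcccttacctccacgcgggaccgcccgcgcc
FADS2: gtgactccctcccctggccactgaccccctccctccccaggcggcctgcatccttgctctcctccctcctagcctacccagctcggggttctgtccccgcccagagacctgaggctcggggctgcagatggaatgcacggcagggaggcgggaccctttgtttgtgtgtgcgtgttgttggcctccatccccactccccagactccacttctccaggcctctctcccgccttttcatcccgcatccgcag
FADS1: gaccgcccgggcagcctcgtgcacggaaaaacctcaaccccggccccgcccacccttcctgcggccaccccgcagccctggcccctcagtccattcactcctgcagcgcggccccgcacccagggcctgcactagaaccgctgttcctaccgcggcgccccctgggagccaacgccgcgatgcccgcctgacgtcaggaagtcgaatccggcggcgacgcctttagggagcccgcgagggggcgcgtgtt
ACLY: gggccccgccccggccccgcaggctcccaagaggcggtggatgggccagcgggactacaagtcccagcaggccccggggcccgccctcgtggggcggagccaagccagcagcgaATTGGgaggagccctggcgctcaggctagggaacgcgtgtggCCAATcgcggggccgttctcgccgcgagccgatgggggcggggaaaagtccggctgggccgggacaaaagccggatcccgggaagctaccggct
A RefSeq window was matched for 9 of the 10 genes, all but FASN. SCD held a CCAAT box 229 and 186 bases before its start, and ACLY held one 136 and 94 bases before its start. FADS2 and FADS1 held none in these windows. The start used was found in 1 GENCODE transcript for SCD, FADS2 and FADS1 and in 7 for ACLY. Windows at other starts of these genes were not examined. Over the 9 genes, read on both strands, CCAAT was found in 4 (ACLY, ACACA, ELOVL5 and SCD), against 32% of the 35116 windows of the same length. The sterol regulatory element letters TCACNCCAC were found in 0 of 9 and in 0.883% of all windows, and the GC box GGGCGG, bound by SP1, in 8 of 9 and in 42.6% of all windows. The counts and shares are not like for like. All windows were taken without choosing a start per gene or genes that were tested here. The 9 windows are each a chosen start of a tested gene, with a GC content of 56.0% to 78.0%, and were not matched to others by GC content. A match is a description of the letters and not of binding.

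SREBF1 (ENSG00000072310, chromosome 17, 17810399 to 17837002, minus strand, GRCh38) stood lower in both knockouts. Its log2 values were 12.91, 12.41, 12.76 and 12.41 in CTCF-A KO replicates 1 to 4, 11.45, 11.26, 11.45 and 11.55 in CTCF-B KO replicates 1 to 4, and 13.17, 13.19, 12.98 and 13.24 in WT replicates 1 to 4. No library of either knockout reached the lowest WT library, and all CTCF-B KO libraries lay below all CTCF-A KO libraries. The difference from WT was -0.52 ± 0.11 in CTCF-A KO cells (log2, SE, n = 4 each; limma, adjusted p = 0.0011) and -1.72 ± 0.11 in CTCF-B KO cells (adjusted p = 6.03e-08). CTCF-A KO libraries were 2.29-fold above CTCF-B KO libraries (log2 1.20 ± 0.11, adjusted p = 8.03e-07). SREBF1 overlaps the end of RAI1 on the annotation, and the strand setting of the counting is not given in the sources used here. Of 26 other genes tested within 1 Mb of SREBF1, 12 rose and 4 fell in CTCF-A KO cells (median 0.12). In CTCF-B KO cells 11 of them rose and 5 fell (median 0.12).

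ACLY (ENSG00000131473, chromosome 17, 41866908 to 41930542, minus strand), which turns citrate into acetyl-CoA, rose in CTCF-A KO cells, and its difference in CTCF-B KO cells did not pass the test. The log2 values were 13.83, 13.73, 13.79 and 13.65 in CTCF-A KO libraries, 13.15, 13.17, 13.16 and 13.16 in CTCF-B KO libraries, and 13.23, 13.26, 13.21 and 13.23 in WT libraries. All 4 CTCF-A KO libraries lay above every other library. Against WT the difference was 0.52 ± 0.04 in CTCF-A KO cells (limma, adjusted p = 2.31e-07) and -0.07 ± 0.04 in CTCF-B KO cells (adjusted p = 0.159), although the 4 CTCF-B KO libraries did not overlap the WT ones. CTCF-A KO cells were 1.51-fold above CTCF-B KO cells (adjusted p = 4.36e-08). The genes around ACLY also stood high in CTCF-A KO cells: of 37 other genes tested within 1 Mb, 35 rose and 1 fell, with a median of 0.42. Of these 37 genes, 12 rose and 6 fell in CTCF-B KO cells, with a median of 0.11. The part of this regional difference in the ACLY value was not tested.

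ACSS2 (ENSG00000131069, chromosome 20, 34872146 to 34927962, plus strand), the cytosolic enzyme that makes acetyl-CoA from acetate, differed little among the 3 groups. It read 9.48, 9.30, 9.30 and 9.13 in CTCF-A KO libraries, 9.18, 9.08, 9.13 and 9.21 in CTCF-B KO libraries, and 9.13, 9.18, 8.98 and 9.13 in WT libraries, so each knockout overlapped WT. The difference was 0.20 ± 0.07 in CTCF-A KO cells (limma, adjusted p = 0.0254) and 0.04 ± 0.07 in CTCF-B KO cells (adjusted p = 0.688). The first call was lost with the GC and length trend removed (0.08, adjusted p = 0.217). It was also lost without CTCF-A KO replicate 1 (0.14, adjusted p = 0.0692) and without WT replicate 3 (0.16, adjusted p = 0.0837). With CTCF-A KO replicate 4 alone the difference was 0.03. Of 27 other genes tested within 1 Mb of ACSS2, 16 rose and 6 fell in CTCF-A KO cells (median 0.18). In CTCF-B KO cells 5 of them rose and 5 fell (median -0.03). The part of this regional difference in the ACSS2 value was not tested.

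ACACA (ENSG00000278540, chromosome 17, 37084988 to 37406818, minus strand), the enzyme that makes malonyl-CoA, fell modestly in both knockouts. Its log2 values were 11.31, 11.33, 11.51 and 11.63 in CTCF-A KO libraries, 11.33, 11.26, 11.28 and 11.32 in CTCF-B KO libraries, and 11.71, 11.78, 11.75 and 11.78 in WT libraries. All 8 knockout libraries lay below all WT libraries, with CTCF-A KO replicate 4 the closest to WT. The differences from WT were -0.31 ± 0.06 in CTCF-A KO cells (limma, adjusted p = 8.89e-04) and -0.46 ± 0.06 in CTCF-B KO cells (adjusted p = 7.61e-05). In CTCF-A KO cells the value was -0.13 both with the trend removed and with replicate 4 alone. Of 16 other genes tested within 1 Mb of ACACA, 9 rose and 1 fell in CTCF-A KO cells (median 0.25). In CTCF-B KO cells 6 of them rose and 0 fell (median 0.12).

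FASN (ENSG00000169710, chromosome 17, 82078333 to 82098332, minus strand), the palmitate synthase, fell in both knockouts and further in CTCF-B KO cells. The libraries read 13.47, 13.25, 13.37 and 13.26 in CTCF-A KO cells, 12.66, 12.67, 12.69 and 12.61 in CTCF-B KO cells, and 13.77, 13.72, 13.66 and 13.80 in WT cells. The 3 groups formed 3 separate levels with no overlap. FASN stood at 0.757 of WT in CTCF-A KO cells (log2 -0.40 ± 0.05; limma, adjusted p = 2.44e-05) and at 0.473 of WT in CTCF-B KO cells (log2 -1.08 ± 0.05, adjusted p = 4.76e-09). With the trend removed the CTCF-A KO difference was -0.61. FASN has the highest GC content of the 10 genes, 65.3% of the bases of its longest annotated transcript. Around it, 42 of the 52 other genes tested within 1 Mb rose and 0 fell in CTCF-A KO cells (median 0.41). FASN thus moved against its neighbours there, while in CTCF-B KO cells 7 of the neighbours rose and 11 fell (median -0.01). Counts within 1 Mb were not redone with the GC trend removed.

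ELOVL6 (ENSG00000170522, chromosome 4, 110045846 to 110199199, minus strand), which extends palmitate towards stearate, fell in CTCF-A KO cells and missed the test in CTCF-B KO cells. It read 8.25, 8.67, 8.38 and 8.88 in CTCF-A KO libraries, 9.46, 9.45, 9.55 and 9.55 in CTCF-B KO libraries, and 9.65, 9.59, 9.67 and 9.71 in WT libraries. CTCF-A KO libraries lay well below the rest and spread most, and CTCF-B KO libraries lay just below WT without overlap. The difference from WT was -1.11 ± 0.11 in CTCF-A KO cells (limma, adjusted p = 2.48e-06) and -0.15 ± 0.11 in CTCF-B KO cells (adjusted p = 0.297). The difference between the knockouts itself passed, at -0.96 ± 0.11 (CTCF-A KO minus CTCF-B KO, adjusted p = 5.93e-06). ELOVL6 has the lowest GC content of the 10 genes, 41.2%, and its CTCF-A KO difference was -0.67 with the trend removed and -0.77 with replicate 4 alone. In CTCF-B KO cells the call was gained when the CTCF-A KO libraries were left out of the fit, which estimates a smaller spread (-0.15, adjusted p = 0.0047). It was also gained with the trend removed (-0.13, adjusted p = 0.0317). Of 8 other genes tested within 1 Mb, 6 fell and 0 rose in CTCF-A KO cells (median -0.18). In CTCF-B KO cells 0 of them fell and 3 rose (median 0.07).

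ELOVL5 (ENSG00000012660, chromosome 6, 53267398 to 53349179, minus strand), the elongase of polyunsaturated chains, differed by little. Its log2 values were 12.74, 12.87, 12.87 and 12.99 in CTCF-A KO libraries, 12.87, 12.83, 12.83 and 12.86 in CTCF-B KO libraries, and 13.06, 13.02, 13.03 and 13.09 in WT libraries. All knockout libraries lay below all WT libraries, and those of the 2 knockouts overlapped. The differences from WT were -0.18 ± 0.05 in CTCF-A KO cells (limma, adjusted p = 0.0041) and -0.20 ± 0.05 in CTCF-B KO cells (adjusted p = 0.0032). The CTCF-A KO difference turned to 0.06 with the trend removed (adjusted p = 0.134) and was -0.06 with replicate 4 alone. The CTCF-B KO call was lost under quantile normalization (-0.11, adjusted p = 0.141). Of 11 other genes tested within 1 Mb, 7 fell and 1 rose in CTCF-A KO cells (median -0.29). In CTCF-B KO cells 4 of them fell and 3 rose (median 0.07).

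SCD (ENSG00000099194, chromosome 10, 100347124 to 100364834, plus strand), the desaturase that makes oleate and palmitoleate, ranked 93rd of 11178 genes in WT cells. These ranks are by value, without correction for gene length. It ranked 522nd in CTCF-A KO cells and 1328th in CTCF-B KO cells. The libraries read 12.64, 12.39, 12.60 and 12.47 in CTCF-A KO cells, 11.48, 11.26, 11.40 and 11.48 in CTCF-B KO cells, and 14.10, 14.05, 13.82 and 14.25 in WT cells. The 3 groups were apart from each other by more than the range within any of them. The difference from WT was -1.53 ± 0.09 in CTCF-A KO cells (limma, adjusted p = 2.12e-08) and -2.65 ± 0.09 in CTCF-B KO cells (adjusted p = 2.17e-10). CTCF-A KO cells stood 2.18-fold above CTCF-B KO cells (log2 1.12 ± 0.09, adjusted p = 1.87e-07).

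FADS2 (ENSG00000134824, chromosome 11, 61792980 to 61867354, plus strand), the delta-6 desaturase, had the order of the knockouts turned round. It read 7.97, 7.89, 7.69 and 7.78 in CTCF-A KO libraries, 8.34, 8.18, 8.18 and 8.22 in CTCF-B KO libraries, and 10.05, 9.94, 9.60 and 10.11 in WT libraries. Every CTCF-A KO library lay below every CTCF-B KO library, and both lay over 1 log2 unit below the lowest WT library. The difference from WT was -2.09 ± 0.10 in CTCF-A KO cells (limma, adjusted p = 4.95e-09) and -1.70 ± 0.10 in CTCF-B KO cells (adjusted p = 3.41e-08), and CTCF-A KO minus CTCF-B KO was -0.39 ± 0.10 (adjusted p = 0.0035).

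FADS1 (ENSG00000149485, chromosome 11, 61799625 to 61829318, minus strand), the delta-5 desaturase that acts after FADS2, kept the order of SCD. Its log2 values were 10.97, 11.01, 10.94 and 10.90 in CTCF-A KO libraries, 10.62, 10.62, 10.56 and 10.54 in CTCF-B KO libraries, and 11.66, 11.54, 11.39 and 11.59 in WT libraries. The 3 groups did not overlap. FADS1 stood at 0.664 of WT in CTCF-A KO cells (log2 -0.59 ± 0.05; limma, adjusted p = 1.70e-06) and at 0.514 of WT in CTCF-B KO cells (log2 -0.96 ± 0.05, adjusted p = 2.73e-08). The annotated span of FADS1, 29694 bases, lies wholly within that of FADS2 on the opposite strand. Without the strand setting, reads of the shared bases cannot be told apart. The RefSeq starts used here for FADS1 and FADS2 are 599 bases apart. WT replicate 3 was the lowest WT library for SREBF1, ACLY, ACSS2, FASN, SCD, FADS1 and FADS2.

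**Figure D2:**
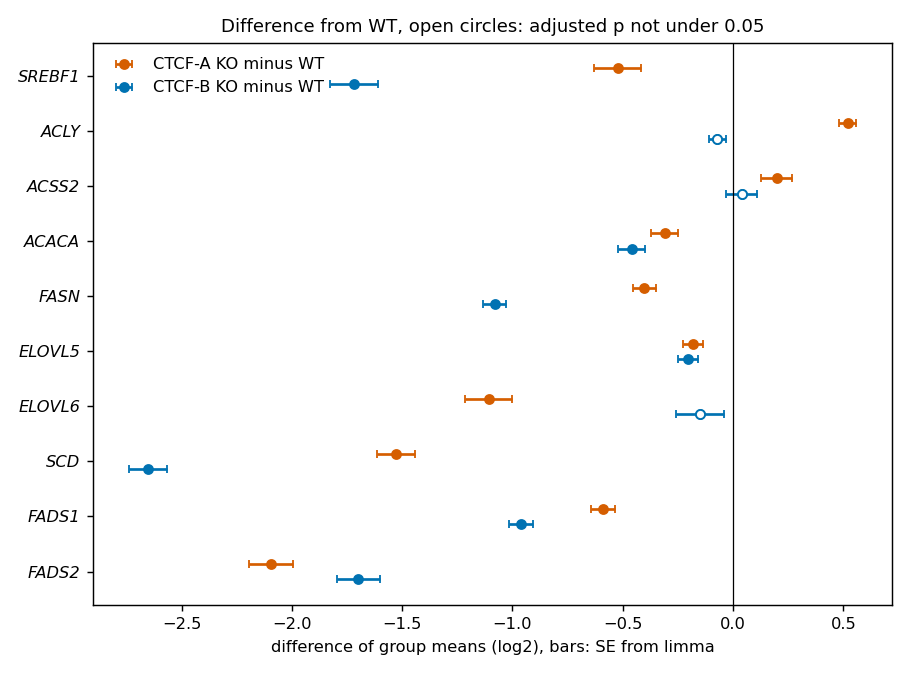
Difference from WT (log2, horizontal axis) of the 10 genes in CTCF-A KO cells (orange) and CTCF-B KO cells (blue), with the SE from limma as bars and open circles where the adjusted p was not under 0.05. FADS2 reaches -2.09 in CTCF-A KO cells and SCD -2.65 in CTCF-B KO cells, and ACLY at 0.52 in CTCF-A KO cells is the furthest to the right.

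Set directly against each other, the knockouts differed at 8 of the 10 genes, where 66.0% of all genes differed. SREBF1, ACLY, ACACA, FASN, SCD and FADS1 were higher in CTCF-A KO cells than in CTCF-B KO cells, 6 genes where 33.4% of all genes were higher, and ELOVL6 and FADS2 were lower, 2 genes where 32.6% of all genes were lower. SREBF1 and SCD were at least 2-fold higher, as were 2.03% of all genes. The libraries of CTCF-A KO cells lay wholly above those of CTCF-B KO cells for 5 genes and wholly below for 2, against 28.3% and 25.3% of all genes. The median was 0.26 over the 10 genes and -0.0063 over all genes. As deposited, the largest differences between the knockouts were 1.20 for SREBF1, 1.12 for SCD, -0.96 for ELOVL6, 0.68 ± 0.05 for FASN (limma, adjusted p = 1.50e-07) and 0.59 for ACLY. With the GC and length trend removed the FASN difference was 0.24 and no longer among the largest, ELOVL6 stood at -0.54 and FADS2 at -0.60, and all 3 still passed. With CTCF-A KO replicate 4 alone ELOVL6 stood at -0.62. FADS1 differed by 0.37 ± 0.05 (adjusted p = 6.28e-05). ACSS2 (0.16 ± 0.07, adjusted p = 0.0615) and ELOVL5 (0.02 ± 0.05, adjusted p = 0.672) did not pass. ELOVL5 passed with the trend removed (0.29), was 0.14 with CTCF-A KO replicate 4 alone, and was -0.14 under quantile normalization (adjusted p = 0.0538). ACSS2 passed under quantile normalization (0.22, adjusted p = 0.0340) and median centring (0.23, adjusted p = 0.0316), and was 0.05 with the trend removed and -0.01 with replicate 4 alone. ACACA passed by little (0.15 ± 0.06, adjusted p = 0.0492), its libraries overlapped, and the call was lost when any 1 of 10 of the 12 libraries was left out and under quantile normalization (0.07, adjusted p = 0.399). It was firmer with the trend removed (0.23, adjusted p = 8.86e-05) and with median centring (0.22, adjusted p = 0.0041). With CTCF-A KO replicate 4 alone the ACACA difference was 0.33.

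Differences between members of a pair within a library do not depend on a constant scaling of the library. FADS2 minus FADS1, the earlier minus the later desaturase of the polyunsaturated path, was -3.00, -3.13, -3.25 and -3.11 in CTCF-A KO libraries, -2.28, -2.44, -2.39 and -2.32 in CTCF-B KO libraries, and -1.61, -1.61, -1.78 and -1.48 in WT libraries. FADS2 thus fell further than FADS1 in both knockouts, with a shift of the pair of -1.50 in CTCF-A KO cells and -0.74 in CTCF-B KO cells. SCD minus FASN was -0.83, -0.86, -0.77 and -0.79 in CTCF-A KO libraries, -1.18, -1.42, -1.29 and -1.13 in CTCF-B KO libraries, and 0.33, 0.33, 0.16 and 0.45 in WT libraries. SCD was above FASN in every WT library and below it in every knockout library, which shifted the pair by -1.13 in CTCF-A KO cells and -1.57 in CTCF-B KO cells. These raw values compare the same 2 genes across libraries and are not corrected for gene length.

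ELOVL6 minus ELOVL5 averaged -4.32 ± 0.20 in CTCF-A KO libraries, -3.34 ± 0.06 in CTCF-B KO libraries and -3.40 ± 0.03 in WT libraries (SD, n = 4 each). The pair moved by -0.93 in CTCF-A KO cells, where all 4 libraries lay below WT, and by 0.05 in CTCF-B KO cells, where the libraries overlapped (exact permutation p = 0.171), or by 0.09 with the GC and length trend removed (exact permutation p = 0.0286). ACSS2 minus ACLY averaged -4.45 ± 0.07 in CTCF-A KO libraries, -4.01 ± 0.06 in CTCF-B KO libraries and -4.13 ± 0.07 in WT libraries. That pair moved by -0.32 in CTCF-A KO cells and by 0.11 in CTCF-B KO cells (exact permutation p = 0.0857). Over the 4 pairs and 3 comparisons, 10 of the 12 two-sided exact tests gave p = 0.0286, with an adjusted p of 0.0343 over the 12. That is the smallest p that 4 against 4 libraries allow and means only that the groups did not overlap. Among single genes 22.1% lay wholly below and 25.7% wholly above WT in CTCF-A KO cells, and 27.3% and 26.2% in CTCF-B KO cells. The share among other gene pairs was not computed. Under quantile normalization the ACSS2 and ACLY pair no longer passed in CTCF-A KO cells against WT (-0.17, exact permutation p = 0.114) or between the knockouts (-0.21 against -0.43 as deposited, exact permutation p = 0.0857).

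**Figure D3:**
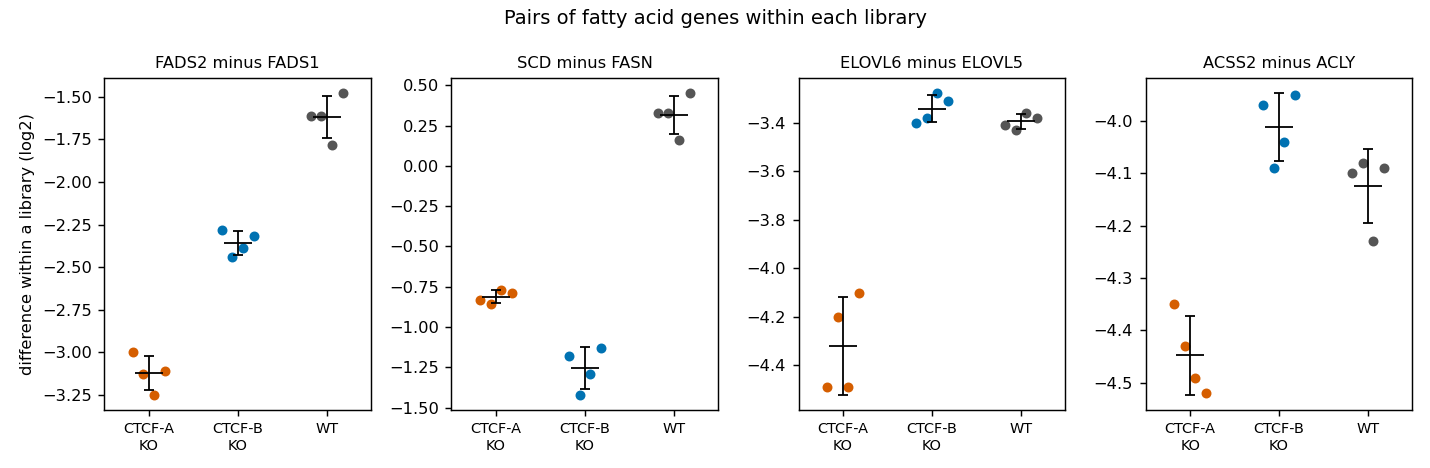
Difference between 2 genes within each library (log2, vertical axis) for FADS2 minus FADS1, SCD minus FASN, ELOVL6 minus ELOVL5 and ACSS2 minus ACLY, each dot a CTCF-A KO, CTCF-B KO or WT library with the mean and SD of its group. SCD minus FASN is positive in all 4 WT libraries and negative in all 8 knockout libraries, and ELOVL6 minus ELOVL5 is low in CTCF-A KO libraries alone.

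Levels can be compared between genes only per length, and the order of the 10 genes changed with the group. Per kilobase of exon, SCD stood at 10.10 in CTCF-A KO cells, 8.98 in CTCF-B KO cells and 11.63 in WT cells (log2 level per kilobase, mean of 4 libraries). That was the highest of the 10 in WT cells and the fourth in both knockouts. ACLY led in CTCF-A KO cells at 11.37, above ELOVL5 at 10.94, with FASN at 10.11 next and not apart from SCD beyond their spread. In CTCF-B KO cells ELOVL5 led at 10.92, above ACLY at 10.78, FASN at 9.43, SCD, and SREBF1 at 8.42. In WT cells ELOVL5 at 11.12, ACLY at 10.85, FASN at 10.51 and SREBF1 at 10.14 followed SCD without overlap. FADS2 was the lowest of the 10 per kilobase in every group, at 4.37 in CTCF-A KO cells, 4.77 in CTCF-B KO cells and 6.46 in WT cells. The length used joins the exons of all annotated transcripts, 11026 bases for FADS2, and can exceed that of the transcripts present. Before division by length, FADS2 in WT cells (9.93) stood above ELOVL6 (9.65) and ACSS2 (9.11), so its last place there depends on this length. Per kilobase FADS2 was apart from the next gene in both knockouts, but in WT cells FADS2, ACSS2 at 6.68 and ELOVL6 at 6.79 were neighbours whose libraries overlapped. FADS1 and ACACA likewise overlapped in CTCF-A KO cells (7.60 and 7.74) and in WT cells (8.19 and 8.05), and ACSS2 and ELOVL6 in CTCF-B KO cells (6.72 and 6.64).

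**Figure D4:**
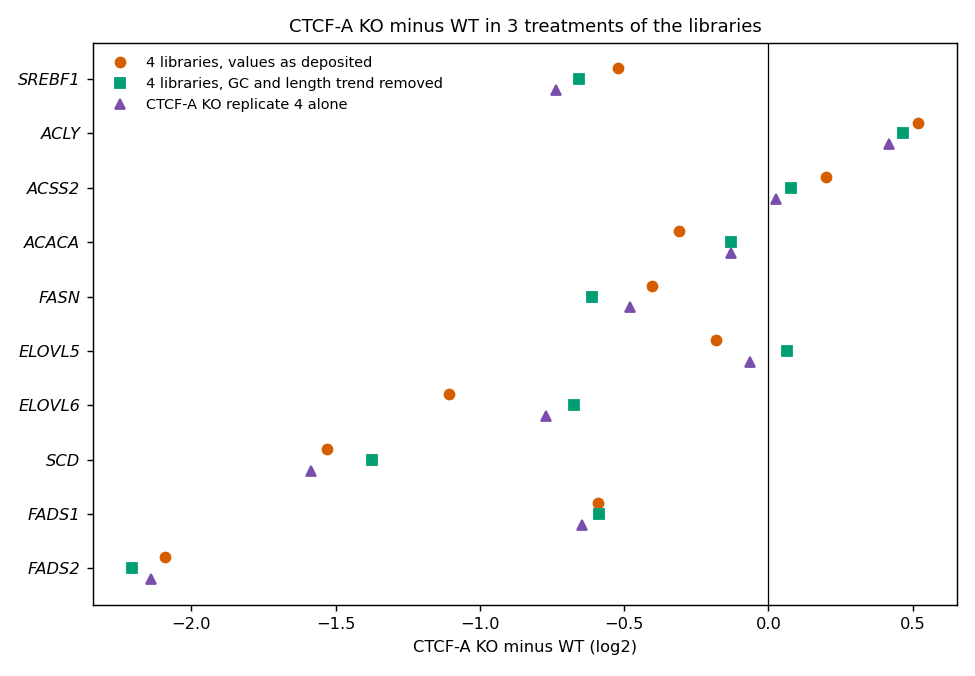
CTCF-A KO minus WT (log2, horizontal axis) for the 10 genes with the values as deposited (orange circles), with the GC and length trend removed from each library (green squares) and with replicate 4 standing alone for CTCF-A KO (purple triangles). ELOVL5 crosses zero (-0.18, 0.06 and -0.06), while SCD (-1.53, -1.37 and -1.59) and FADS2 (-2.09, -2.21 and -2.14) stay far to the left.

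Counts in the lists and windows below are to be read against all genes, of which 31.8% rose and 31.1% fell in CTCF-A KO cells. In CTCF-B KO cells 18.9% of all genes rose and 20.6% fell. The machinery that controls SREBP moved in both directions, at rates near these. Of 13 such genes 11 were tested. In CTCF-A KO cells 4 rose and 4 fell (median 0.13), and in CTCF-B KO cells 3 rose and 3 fell (median 0.03). INSIG1, which holds SREBP in the endoplasmic reticulum and is itself an SREBP target, fell in CTCF-A KO cells (-1.12 ± 0.06) and in CTCF-B KO cells (-1.69 ± 0.06; log2, SE; limma, adjusted p = 9.70e-09 and 2.83e-10). SREBF2, the sterol-directed relative of SREBF1, averaged 12.14 ± 0.13 in CTCF-A KO libraries, 11.16 ± 0.02 in CTCF-B KO libraries and 12.02 ± 0.07 in WT libraries (SD, n = 4 each). It fell in CTCF-B KO cells (-0.86 ± 0.06, limma, adjusted p = 1.67e-07), its CTCF-A KO difference was 0.13 ± 0.06 (adjusted p = 0.0767), and CTCF-A KO minus CTCF-B KO was 0.98. MBTPS1, the first protease that cuts SREBP, fell in CTCF-A KO cells (-0.66 ± 0.04, adjusted p = 1.68e-08) and rose slightly in CTCF-B KO cells (0.11 ± 0.04, adjusted p = 0.0332). MLXIP, a glucose-sensing transcription factor, rose in both (0.34 ± 0.04 in CTCF-A KO cells and 0.13 ± 0.04 in CTCF-B KO cells). The 3 rises of the list in CTCF-B KO cells were lost without CTCF-B KO replicate 1 or 3 or WT replicate 3 or 4, which each gave 0 higher and 3 lower.

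Among the 8 tested suppliers of citrate, acetyl-CoA and NADPH, 4 rose and 2 fell in CTCF-A KO cells (median 0.07), while 0 rose and 4 fell in CTCF-B KO cells (median -0.13). The CTCF-A KO counts were 3 higher and 0 lower in a fit without the CTCF-B KO libraries, 4 and 0 with median centring, and 2 and 3 with replicate 4 alone. SLC25A1, the mitochondrial citrate carrier, rose in CTCF-A KO cells (log2 0.19 ± 0.08, SE; limma, adjusted p = 0.0388) and fell in CTCF-B KO cells (-0.47 ± 0.08, adjusted p = 2.94e-04). CTCF-A KO minus CTCF-B KO was 0.67. ACSS1, the mitochondrial partner of ACSS2, fell in CTCF-B KO cells (-0.49 ± 0.06) and had a difference of -0.07 in CTCF-A KO cells that did not pass.

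The other enzymes of chain elongation moved in both directions. Of 9 tested, 5 rose and 2 fell in CTCF-A KO cells (median 0.34), and 2 rose and 3 fell in CTCF-B KO cells (median 0.04). ELOVL2, an elongase of long polyunsaturated chains, rose by 0.80 ± 0.10 in CTCF-A KO cells (log2, SE). There, too, HACD1, a dehydratase of the cycle, rose by 0.87 ± 0.06 and TECR, the last reductase, by 0.42 ± 0.06, whereas HSD17B12, the first reductase, fell by 0.58 ± 0.06. In CTCF-B KO cells TECR fell by 0.22 ± 0.06 (limma, adjusted p = 0.0145), and ELOVL2 (-0.07), HACD1 (0.06) and HSD17B12 (0.04) did not pass.

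The relatives of the desaturases were mixed. Of 7 tested, counting the cytochrome b5 electron donors, 5 rose and 2 fell in CTCF-A KO cells (median 0.27), and 1 rose and 2 fell in CTCF-B KO cells (median -0.04). With median centring the CTCF-B KO counts were 1 and 0. SCD5, the second stearoyl-CoA desaturase, averaged 10.25 ± 0.06 in CTCF-A KO libraries, 10.62 ± 0.01 in CTCF-B KO libraries and 10.47 ± 0.05 in WT libraries (SD, n = 4 each), differences from WT of -0.22 in CTCF-A KO cells and 0.15 in CTCF-B KO cells (limma, adjusted p = 5.53e-04 and 0.0101). FADS3, which lies next to FADS2, rose by 0.38 ± 0.07 in CTCF-A KO cells (adjusted p = 3.43e-04) and did not pass in CTCF-B KO cells (-0.14, adjusted p = 0.130). CYB5R3, which passes electrons from NADH to cytochrome b5, rose by 0.45 ± 0.06 in CTCF-A KO cells and fell by 0.21 ± 0.06 in CTCF-B KO cells. Its relative CYB5R1 rose by 0.72 ± 0.06 in CTCF-A KO cells and had a difference of 0.08 in CTCF-B KO cells that did not pass.

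Of 6 other genes of acyl chain synthesis, 2 rose and 2 fell in CTCF-A KO cells (median 0.12), and 1 rose and 2 fell in CTCF-B KO cells (median -0.01). MCAT, of mitochondrial fatty acid synthesis, rose by 0.40 ± 0.07 in CTCF-A KO cells and had a difference of -0.06 in CTCF-B KO cells that did not pass. AACS, which activates acetoacetate, fell in both (-0.24 ± 0.06 in CTCF-A KO cells and -0.31 ± 0.06 in CTCF-B KO cells). With CTCF-A KO replicate 4 alone 0 genes of this list rose and 2 fell.

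Genes that activate and esterify fatty acids were mixed: of 11 tested, 3 rose and 4 fell in CTCF-A KO cells (median -0.01), and 2 rose and 3 fell in CTCF-B KO cells (median -0.12). ACSL3, which activates fatty acids and is needed for lipid droplets, fell in both (-0.59 ± 0.10 in CTCF-A KO cells and -0.71 ± 0.10 in CTCF-B KO cells). GPAM, the first acyltransferase of glycerolipid synthesis, fell in CTCF-A KO cells (-0.81 ± 0.14) and did not pass in CTCF-B KO cells (-0.19). LPIN1, a phosphatidate phosphatase, fell in both (-0.19 ± 0.05 in CTCF-A KO cells and -0.72 ± 0.05 in CTCF-B KO cells). DGAT2, which makes triacylglycerol, rose in CTCF-B KO cells (0.57 ± 0.08), with a CTCF-A KO difference of -0.05 that did not pass. The CTCF-A KO counts were 2 higher and 2 lower with the trend removed, and 0 and 3 with replicate 4 alone.

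Of 14 fatty acid oxidation genes tested, 3 rose and 0 fell in CTCF-A KO cells (median 0.02), and 0 rose and 5 fell in CTCF-B KO cells (median -0.01). CPT1C, the brain form of carnitine palmitoyltransferase, rose by 0.46 ± 0.07 in CTCF-A KO cells and fell by 0.51 ± 0.07 in CTCF-B KO cells (log2, SE; limma, adjusted p = 1.06e-04 and 7.88e-05). PPARD, a nuclear receptor that turns on oxidation genes, fell in CTCF-B KO cells (-0.31 ± 0.06) and had a CTCF-A KO difference of -0.12 that did not pass. The CTCF-A KO counts depended on the libraries: 7 rose and 3 fell with the trend removed, 1 rose and 5 fell with replicate 4 alone, and 6 rose and 2 fell without replicate 4. They were 6 and 0 with median centring, 5 and 3 under quantile normalization, and 1 and 0 without CTCF-A KO replicate 2 or 3 or WT replicate 2, 3 or 4, and in the fit without the CTCF-B KO libraries. The CTCF-B KO counts were 0 higher and 3 lower with median centring and without WT replicate 2, and 2 and 5 in the fit without the CTCF-A KO libraries.

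The sterol genes that SREBP also drives fell in both knockouts. Of 10 tested, 0 rose and 9 fell in CTCF-A KO cells (median -0.45), and 0 rose and 10 fell in CTCF-B KO cells (median -0.54), and 6 were higher and 0 lower in CTCF-A KO cells than in CTCF-B KO cells. LSS, which closes the sterol rings, differed from WT by -0.38 ± 0.06 in CTCF-A KO cells and -0.98 ± 0.06 in CTCF-B KO cells (log2, SE). STARD4, a sterol carrier, differed from WT by -0.69 ± 0.14 in CTCF-A KO cells and -1.37 ± 0.14 in CTCF-B KO cells, and SQLE, a rate-limiting oxygenase, by -0.40 ± 0.05 in CTCF-A KO cells and -0.60 ± 0.05 in CTCF-B KO cells. With the trend removed 9 of the 10 were higher and 1 lower in CTCF-A KO cells than in CTCF-B KO cells.

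The genes most like SCD over the 12 libraries, by Pearson correlation of log2 values, were OLMALINC (r = 0.997), NTN1 (0.994), INSIG1 (0.993), SCUBE3 (0.993) and NXN (0.991). The libraries fall into their 3 groups for all of these genes, so the coefficients describe the group levels and carry no p. NTN1, a guidance cue, differed from WT by -1.54 in CTCF-A KO cells and -2.68 in CTCF-B KO cells (log2). SCUBE3, a secreted protein, differed by -2.17 in CTCF-A KO cells and -3.32 in CTCF-B KO cells, and NXN, a thioredoxin relative, by -0.82 in CTCF-A KO cells and -1.37 in CTCF-B KO cells. Those most like FADS2 were GFAP (r = 0.989), ADAMTS16 (0.988), SYT11 (0.986), NRG2 (0.986) and CADM1 (0.985). GFAP, the astrocyte intermediate filament, differed from WT by -3.11 in CTCF-A KO cells and -2.85 in CTCF-B KO cells. CADM1, an adhesion protein, differed by -2.24 in CTCF-A KO cells and -1.80 in CTCF-B KO cells, and ADAMTS16, a secreted protease, by -1.75 in CTCF-A KO cells and -1.66 in CTCF-B KO cells. The differences were smaller for NRG2, a growth factor, at -0.80 in CTCF-A KO cells and -0.69 in CTCF-B KO cells, and for SYT11, a vesicle protein, at -0.38 in CTCF-A KO cells and -0.32 in CTCF-B KO cells.

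OLMALINC, a long noncoding RNA, is also the nearest gene past the end of SCD, 8678 bases away (chromosome 10, 100373513 to 100454043, GRCh38). It fell by 0.73 ± 0.07 in CTCF-A KO cells and by 1.27 ± 0.07 in CTCF-B KO cells (log2, SE; limma, adjusted p = 2.30e-06 and 2.04e-08). Of the 20 genes tested within 1 Mb of SCD, 10 fell and 0 rose in CTCF-A KO cells, with a median of -0.19 and with SLF2, a DNA repair factor, lowest at -0.97. The counts were 4 lower and 2 higher in CTCF-B KO cells, with a median of -0.11 and with OLMALINC lowest. SCD itself was below all 20 in both knockouts.

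Of the 44 other genes tested within 1 Mb of FADS2, leaving out FADS1, 8 fell and 10 rose in CTCF-A KO cells, between -0.55 for HNRNPUL2 and 0.60 for FTH1, with a median of 0.0034. In CTCF-B KO cells 12 fell and 2 rose, between -0.40 for GANAB and 0.69 for SLC3A2, with a median of -0.10. MYRF, a membrane-bound transcription factor of myelin genes beside FADS2, rose by 0.24 ± 0.06 in CTCF-A KO cells and by 0.51 ± 0.06 in CTCF-B KO cells. FEN1, a flap endonuclease that overlaps FADS2 on the annotation, differed by -0.15 in CTCF-A KO cells (limma, adjusted p = 0.0271) and -0.14 in CTCF-B KO cells (adjusted p = 0.0471). No gene of this window was as far below WT as FADS2 in either knockout, and FADS1 came next in both.

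**Figure D5:**
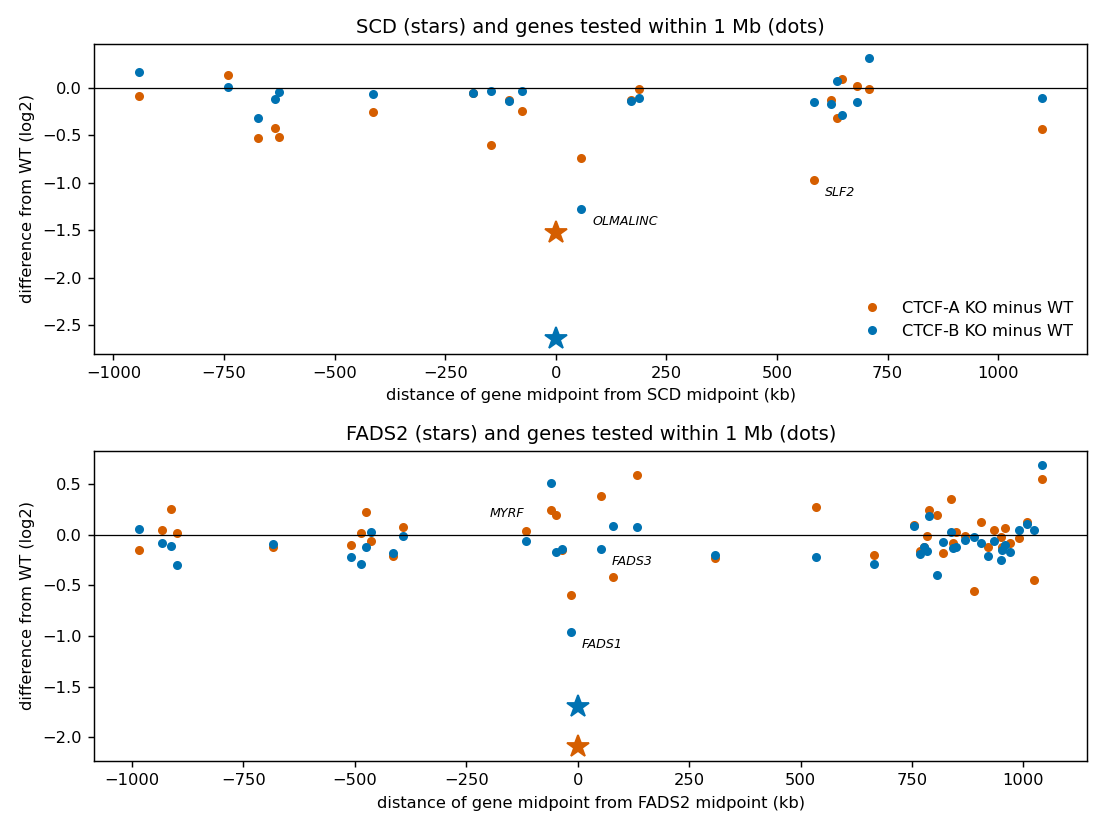
Difference from WT (log2, vertical axis) of genes tested within 1 Mb of SCD (upper panel) and FADS2 (lower panel), by the distance between gene midpoints in kb (horizontal axis), in CTCF-A KO cells (orange) and CTCF-B KO cells (blue), with SCD and FADS2 as stars. OLMALINC beside SCD (-0.73 and -1.27) and FADS1 beside FADS2 (-0.59 and -0.96) lie low, while MYRF and FADS3, near FADS2, lie at 0.24 and 0.38 in CTCF-A KO cells and at 0.51 and -0.14 in CTCF-B KO cells.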

How the data were processed

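Total RNA (1.5 µg per library) was sequenced as 150-base read pairs. Per the submitters' processing notes, reads were trimmed with Trimmomatic 0.33 and counted with featureCounts on GRCh38.p7, and DESeq2 was used. The aligner, annotation, strand setting and log2 step are not given in the sources used here. The values deposited by the authors are normalized log2 values, from 1.34 to 17.97, and were used as they stood; depth is unknown. Groups came from the sample titles. Genes with a linear value of at least 10 in at least 4 libraries were kept (50 removed). One model of the 3 groups was fitted with limma 3.58.1 (R 4.3.3, trended eBayes), two-sided, with Benjamini-Hochberg adjustment at 0.05 over 11128 genes. Pairs of genes were compared by two-sided exact permutation tests, 70 arrangements each. Coordinates are from GENCODE 29 (GRCh38) and promoters from RefSeq (GRCh38.p14). The GC and length trend was a spline fitted per library to deviations from the WT mean. The model was tested on simulated data. Genes and lists were chosen with earlier results of these data known. Beside the 10 genes, up to 4 genes per list were named, those with the smallest adjusted p and a log2 difference of at least 0.3, and the 5 genes most like SCD and FADS2. SCD5, FEN1, MYRF and FADS3 in its window were named for their position or relation. Alternatives were other filters, quantile normalization, median centring, a pseudocount of 16, 8-library fits, no variance trend, a replicate block, trend removal, CTCF-A KO replicate 4 alone and leaving out each library. Counts for the lists under these alternatives were added after the data had been seen. Some list genes that this rule selects are not reported here.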

Additional observations from a re-analysis of the deposited data

How the results depend on the processing

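Counts of the 10 genes stayed within 8 to 10 in CTCF-A KO cells, 6 to 9 in CTCF-B KO cells and 7 to 9 between the knockouts over the alternatives that kept all libraries or CTCF-A KO replicate 4 alone. Leaving out 1 library gave 9 to 10 in CTCF-A KO cells and 7 to 8 in each of the other two comparisons. For all genes, leaving out 1 library gave 6182 to 8210 calls in CTCF-A KO cells, 3670 to 5824 in CTCF-B KO cells and 6734 to 8425 between the knockouts, against 7002, 4389 and 7349. CTCF-B KO calls numbered 6601 in a fit without the CTCF-A KO libraries and 6604 when replicate 4 stood alone for CTCF-A KO, since the spread is then estimated from the closer replicates, and ACLY (adjusted p = 0.0082 and 0.0081) and ELOVL6 (0.0047 and 0.0050) then passed as lower in CTCF-B KO cells. With CTCF-A KO replicate 4 alone, CTCF-A KO calls numbered 4654. The ELOVL5 difference in CTCF-A KO cells turned to 0.0631 with the GC and length trend removed, with and without the replicate block (adjusted p = 0.153 and 0.134), the cause of which was not tested.

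With the replicate number as a block, 7060, 4414 and 7420 genes were called, and 10, 7 and 8 of the 10 genes, so the block changed no call among them. Over 12 pairs of same-numbered libraries the correlation of deviations from the group means ran from -0.32 to 0.43, 5 of 12 were over 0.1, and 4 of 12 libraries correlated best with their own number, so the numbers were not taken to pair the libraries.

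Depth is unknown, so counting error could not be given, and precision rests on 4 libraries per group. Reads of FADS1 and FADS2, which overlap on opposite strands, cannot be told apart without the strand setting.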
